A study of Danio rerio with 25 samples.

Results

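MiR-21 in the skin of ageing male zebrafish (Danio rerio) was followed through both of its genomic copies, dre-mir-21-1 and dre-mir-21-2, which are 2 of the 346 hairpins in the deposited count table. The members were taken by name from that table, with earlier results of these data known, and are described singly and summed. Small RNA of whole skin was sequenced at 5 ages, with 5 libraries each. Fish of 6 and of 24 months had the strain label AB JxTü with no transgene. Fish of 12 months carried Tg(flk:mCherry), a reporter line for vessels, on that background, those of 36 months Tg(pu.1:GFP), a reporter line for myeloid cells, and those of 42 months Tg(wt1a:GFP), a reporter line known from kidney and other mesoderm. No group received a treatment. Age is tied to the transgene line everywhere but between 24 and 6 months, so the effects of line and age cannot be told apart in the other comparisons. The labels give each library its own number but do not say in words that the libraries are separate fish, so p-values measure the spread between libraries, which may be technical.

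MicroRNAs are short RNAs cut from hairpin precursors that lower the output of messenger RNAs carrying a match to their seed, a run of bases near the 5′ end. MiR-21 is among the microRNAs best known for rising in inflamed, wounded, fibrotic and tumour tissue of mammals, where it lowers PDCD4, which restrains translation, and Sprouty proteins, which restrain growth signals. In zebrafish it is known from the forming heart valves, where blood flow induces it. It is made in many cell types, epithelium, fibroblasts and blood cells among them, and is not a marker of any single one.

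The hairpins lie in separate but related neighbourhoods. In RefSeq's gene order for assembly GRCz12tu, which may not be the build behind the counts, both were matched by symbol. They lie on different chromosomes and neither lies inside another annotated gene. Mir-21-2 has as its nearest gene on one side vmp1, the autophagy gene that also neighbours miR-21 in mammals, and on its other side the next protein-coding genes are tubd1 and rps6kb1b. Mir-21-1 has rps6kb1a as its nearest gene on one side and ptrh2 and cltca as the next protein-coding genes on the other. Copies of the S6 kinase gene (rps6kb1a and rps6kb1b) and of the clathrin heavy chain gene (cltca and cltcb) are thus found near both.

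The copies held almost the same number of counts in every library. Copy 1 held 50.4% ± 0.105 of their joint counts (SD over 25 libraries), from 50.2% in 12 months replicate 1 to 50.6% in 24 months replicate 3. It was the larger in 25 of 25 libraries, and its exact Clopper-Pearson 95% interval lay above an even share in 24 of them, the exception being 12 months replicate 1 (49.8% to 50.5%). Means by age were 50.3% to 50.5%, and a Kruskal-Wallis comparison of the ages by permutation gave p = 0.0741. The 29 names with several copies that reached a minimum mean count were ordered by the ratio of the largest to the smallest copy total. MiR-21 was at place 15 with a ratio of 1.02, in a range from 1.00 for miR-133a to 2.85 for miR-199. These intervals cover counting error only, since the reads carried no stated molecular identifiers. The sources used here do not give how reads matching both hairpins were counted, so the copies were not treated as independent measurements. Their sum is the main measure below, and it may hold a read more than once.

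**Figure D1:**
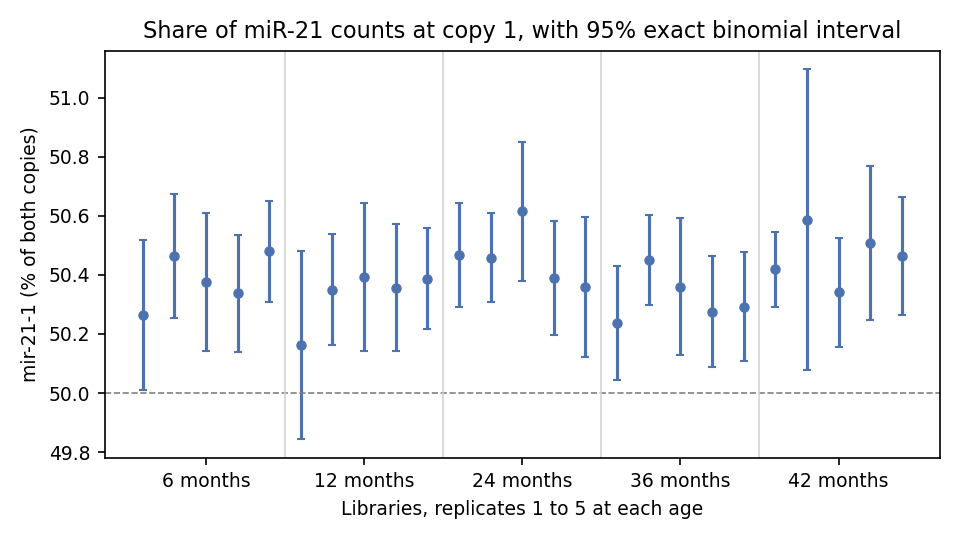
Share of miR-21 counts found at mir-21-1 (y axis, percent of both copies, axis not from 0) in each of the 25 libraries in order of age and replicate (x axis), with 95% exact binomial intervals. Every point lies between 50.2% and 50.6%, just above the dashed line of an even share, at every age.

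Levels are given as CPM, the counts for every 1000000 reads on hairpins, with each library total adjusted by its TMM factor, a scaling that assumes most microRNAs do not differ between libraries. At 6 months miR-21 stood at 56280.0, 61269, 68358, 55515 and 66066 CPM in replicates 1 to 5. At 12 months the values were 46491, 57405, 58284, 50896 and 58058 CPM. These youngest ages overlapped, with means of 61498 ± 5723 and 54227 ± 5296 CPM (SD, n = 5 each). At 24 months the libraries held 76622, 108542, 85047, 63745 and 63969 CPM, with a mean of 79585 ± 18519. Replicate 2 was the highest there, and replicates 4 and 5 lay inside the range of the 6-month libraries. At 36 months the levels were 86008, 93523, 83082, 95768 and 77395 CPM (mean 87155 ± 7548). All 5 of these libraries lay above every library of 6 and 12 months on this scale. At 42 months the libraries held 254388, 61837, 98493, 86478 and 159562 CPM, with a mean of 132152 ± 77227. Replicates 1 and 5 were the highest 2 of all 25 libraries, at 4.14 and 2.59 times the 6-month mean, while replicate 2, the shallowest library with 683884 reads on hairpins, held 1.01 times that mean. In bulk skin a change in the number of cells that make miR-21 and a change in its amount per cell cannot be told apart.

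**Figure D2:**
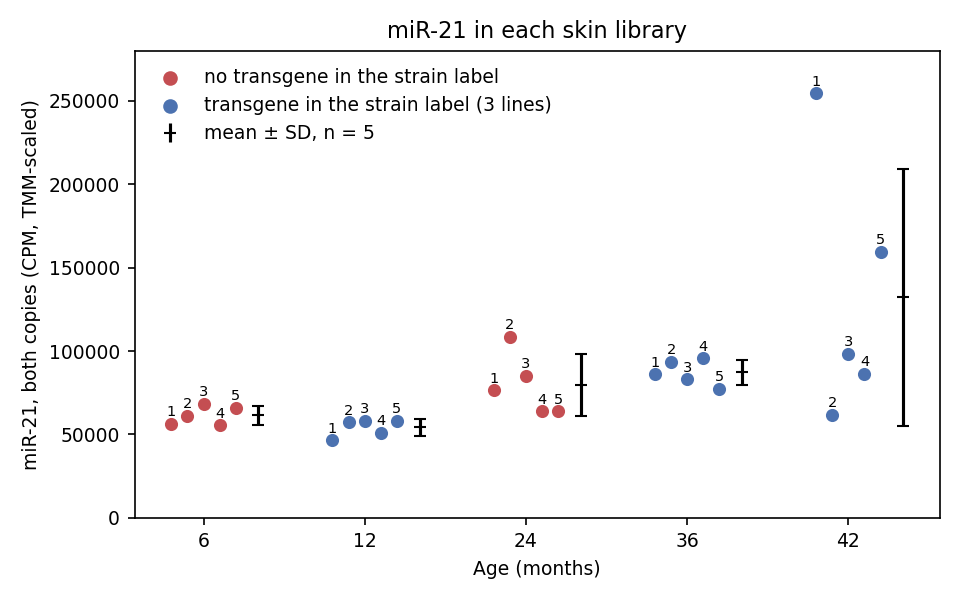
MiR-21 with both copies summed (y axis, TMM-scaled CPM, from 0) in each library at each age (x axis, months, ages evenly spaced), with the replicate number above each point and the mean ± SD beside each group; red marks ages with no transgene in the strain label. Values lie between 46491 and 68358 CPM at 6 and 12 months, between 77395 and 95768 at 36 months, and spread from 61837 to 254388 at 42 months.

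The single copies ran in parallel. Copy 1, dre-mir-21-1, went from 30988 ± 2916 CPM at 6 months through 27296 ± 2707, 40164 ± 9377 and 43861 ± 3818 to 66665 ± 38917 CPM at 42 months (SD, n = 5 each). Copy 2, dre-mir-21-2, went from 30509.7 ± 2807 CPM through 26931 ± 2589, 39421 ± 9143 and 43295 ± 3732 to 65487 ± 38310.4 at the same ages. The order of the ages was the same for both.

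As a share of all hairpin reads, miR-21 took 5.98% ± 0.962 at 6 months, 5.86% ± 0.902 at 12, 8.16% ± 1.44 at 24, 8.55% ± 0.763 at 36 and 12.3% ± 6.08 at 42 months (SD, n = 5 each). The lowest share was 4.32% in 12 months replicate 1 and the highest 21.1% in 42 months replicate 1. With copies summed into 217 names, miR-21 ranked between 3 and 5 in the libraries of 6 and 12 months, between 2 and 4 at 24 months and between 2 and 3 at 36 months. At 42 months it ranked 1 in replicates 1 and 5, the only 2 of the 25 libraries it led, 2 in replicates 3 and 4, and 4 in replicate 2. MiR-10b of the Hox clusters led in 12 libraries, miR-181a in 10, and the epithelial miR-205 in 42 months replicate 2. The sum of the copies may hold a read more than once, so shares and ranks against names with 1 copy may be too high.

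The library totals behind these levels ranged from 683884 to 5206505 reads, and miR-21 itself held between 37085 and 598594 summed counts, so counting error is small beside the spread between libraries. The mean total was 1878604 at 42 months and at least 3255522 at each other age. With the log2 library total as a covariate the slope of miR-21 with age, given next, was 0.41 ± 0.08.

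Across the 5 ages miR-21 rose with age. In edgeR's quasi-likelihood test over 190 names, the log2 slope was 0.36 ± 0.07 per 12 months (SE, 95% interval 0.22 to 0.51), a factor of 1.29 per 12 months (adjusted p = 0.000397). In the trend 11.1% of the names tested were called higher and 15.3% lower, and miR-21 had the 10th smallest p. From the table as deposited, over 258 hairpins, each copy had the same slope of 0.36 ± 0.07 (adjusted p = 0.00032 for both in edgeR). The test for any difference among the ages gave an adjusted p of 0.00203 in edgeR, in a comparison where 38.4% of names were called.

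The rise did not rest on the 42-month group alone, but its size did depend on it. Without that group the slope was 0.26 ± 0.06 per 12 months (edgeR adjusted p = 0.00536). It was 0.27 ± 0.06 without 42 months replicate 1, the lowest value with any single library left out, and 0.23 ± 0.05 (adjusted p = 0.00188) without both 42 months replicates 1 and 5, an alternative added after their values were seen. Over the 3 transgenic ages alone the slope was 0.49 ± 0.11 (adjusted p = 0.0248), and with transgene carriage as a term it was 0.42 ± 0.09 (adjusted p = 0.00229). Each transgenic age had its own line, so neither fit separates age from line. Over all 17 other settings tried, apart from those added later, the adjusted p lay between 1.66e-06 and 0.0248, and it lay between 0.000139 and 0.0015 with each library left out in turn.

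**Figure D3:**
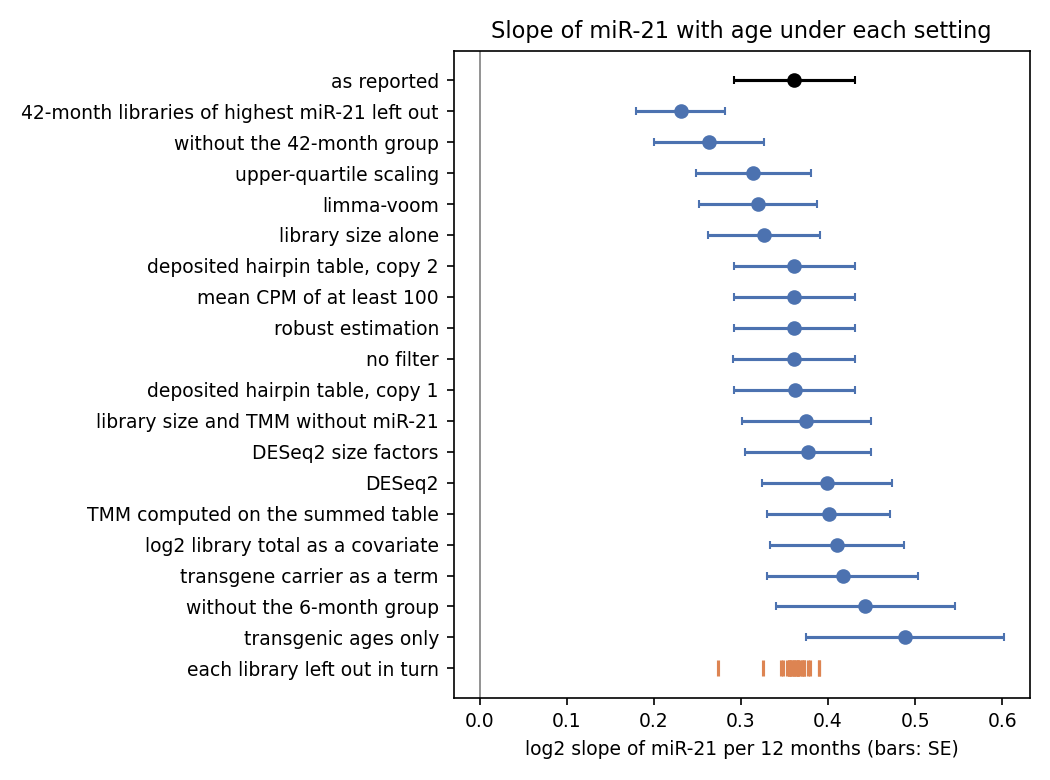
Log2 slope of miR-21 per 12 months (x axis) with its SE as bars under each setting (y axis), and, in the bottom line, the slope with each of the 25 libraries left out in turn as ticks. All slopes lie above 0, from 0.23 without the highest 42-month libraries to 0.49 over the transgenic ages, beside 0.36 as reported.

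Ordered by mean level the ages ran 12, 6, 24, 36 and 42 months, and no pair of neighbours in this order had an adjusted p under 0.05 in edgeR's test of all 5 ages. The log2 change was -0.18 ± 0.25 for 12 against 6 months (SE, 95% interval -0.69 to 0.33, edgeR adjusted p = 0.763), where 3.68% of names were called lower. It was 0.13 ± 0.25 for 36 against 24 months (interval -0.38 to 0.64, edgeR adjusted p = 0.763), with 4.74% of names called higher. For 42 against 36 months it was 0.60 ± 0.25 (interval 0.09 to 1.11, adjusted p = 0.142), with 3 of 5 older libraries above the highest 36-month library and 2.63% of names called higher. Without 42 months replicate 1 that change was 0.23 (adjusted p = 0.543), and without replicates 1 and 5 it was -0.11 (adjusted p = 0.808). The mean of the 3 libraries then left at 42 months was 82269.6 CPM, below the 36-month mean, so the order of the oldest ages rested on those libraries. All 10 pairs share groups and one estimate of the spread.

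Skin of 24 against 6 months, the pair with one strain label, had a log2 change of 0.37 ± 0.25 (SE, 95% interval -0.14 to 0.88) that did not pass (edgeR adjusted p = 0.283, with 8.42% of names called higher). Of the 24-month libraries 3 of 5 lay above every 6-month library. With only these 2 ages in the fit the change was 0.46 ± 0.16 and just passed (adjusted p = 0.0495, with 21 of 189 names called higher). The exact permutation test of log2 CPM gave p = 0.0556, two-sided. Without 24 months replicate 2 the change was 0.22 (edgeR adjusted p = 0.607), and without replicate 3 it was 0.32 (adjusted p = 0.429).

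The largest changes were those of 42 months. Against 6 months miR-21 was higher by 1.10 ± 0.25 on the log2 scale (SE, 2.15-fold, 95% log2 interval 0.59 to 1.62, edgeR adjusted p = 0.00223), where 8.95% of names were called higher. Here 4 of 5 libraries lay above every 6-month library, replicate 2 being the exception. Against 12 months it was higher by 1.29 ± 0.25 (2.44-fold, adjusted p = 0.00572), the smallest p of all names in that pair. The ranges in TMM-scaled CPM did not overlap. In that pair 5.79% of names were called higher and 2.11% were higher with no overlap. With library size alone the ranges of miR-21 overlapped, since 42 months replicate 2 held 54227 CPM and the highest 12-month library 66101. They also overlapped with miR-21 left out of the scaling (64601 against 66293). Both calls, against 6 and 12 months, leaned on 2 libraries. Without 42 months replicates 1 and 5 the changes were 0.45 (adjusted p = 0.072) and 0.62 (adjusted p = 0.0869). Of all names 28 and 0 of 191 were then called in either direction. Leaving out replicate 1 alone gave changes of 0.74 and 0.93. With only 12 and 42 months in the fit the change of 1.33 ± 0.33 missed the threshold (adjusted p = 0.0676). In that fit 0 of 187 names were called, and miR-21 had the 4th smallest p. Both changes were still called without replicate 1 alone, and over each library left out in turn the adjusted p reached 0.0137 and 0.0239. The change of 0.73 ± 0.25 against 24 months did not pass (adjusted p = 0.0662), where 4.21% of names were called higher, and 2 of 5 libraries lay above every 24-month library. It was 0.30 (adjusted p = 0.537) without 42 months replicate 1 and 0.0066 (adjusted p = 0.99) without replicates 1 and 5.

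At 36 months miR-21 in TMM-scaled CPM was higher in every library than in any of 6 or 12 months. The tests that share the spread of all ages did not call either difference. The log2 change was 0.50 ± 0.25 against 6 months (SE, 95% interval -0.01 to 1.01, edgeR adjusted p = 0.16) and 0.68 ± 0.25 against 12 months (0.17 to 1.20, adjusted p = 0.0801). With only the compared ages in the fit the changes were 0.50 ± 0.10 and 0.69 ± 0.13, and both passed (adjusted p = 0.00338 and 0.00635). With all ages in the fit 7.89% of names were called higher against 6 months and 5.79% against 12 months. With only the compared ages 26 and 8 of 189 names were called higher. In TMM-scaled CPM the share of names that were higher with no overlap was 10% for 36 against 6 months and 7.89% for 36 against 12 months. With library size alone 36 months replicate 5 held 74391 CPM of miR-21, just below the 74634 of 6 months replicate 3, so these ages overlapped. The ranges of 36 and 12 months stayed apart. At 24 against 12 months the ranges did not overlap either (log2 change 0.55 ± 0.25, adjusted p = 0.276), which held for 1.58% of names, and edgeR called no name in that pair (0.0% called, 32 of 190 at an unadjusted p under 0.05, 2 by DESeq2 and 0 by limma-voom, neither of which called miR-21). The exact permutation test, run on TMM-scaled CPM only, gave p = 0.00794 for each of the 4 pairs without overlap in that measure. This is the smallest p it can give with 5 against 5, and it was 0.0198 adjusted over the 10 pairs. The same exact test gave p = 0.0238 for 42 against 6 months (0.0476 adjusted).

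**Figure D4:**
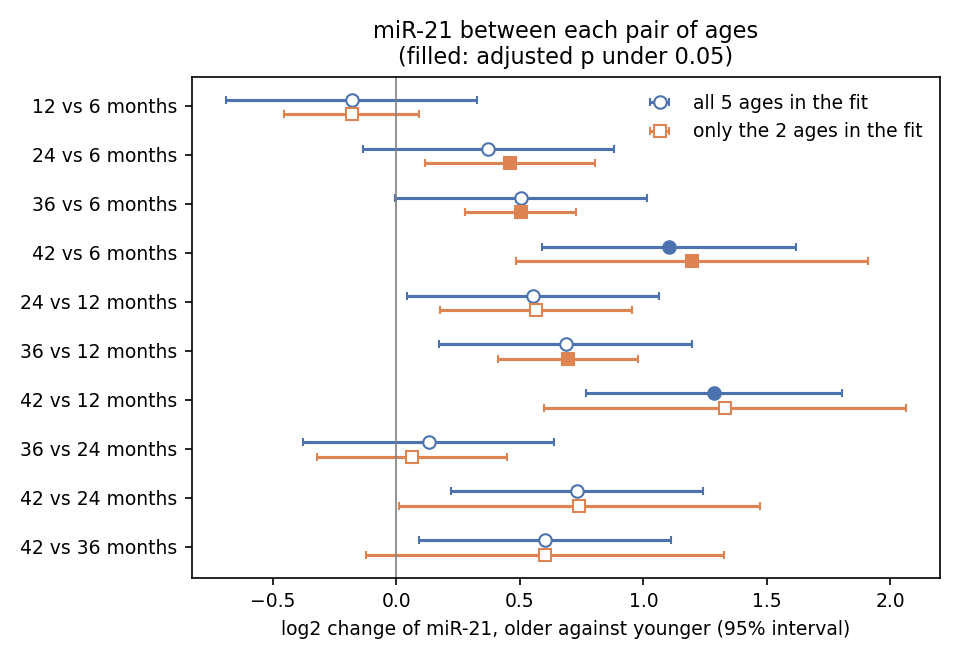
Log2 change of summed miR-21 for each of the 10 pairs of ages (x axis, older against younger, with 95% interval), from the fit of all 5 ages (circles) and of only the 2 compared ages (squares); filled symbols have an adjusted p under 0.05. With all ages in the fit 42 against 6 months (1.10) and 42 against 12 months (1.29) were called, and the intervals of 36 against 6 and 12 months are narrower with only the 2 ages in the fit.

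The libraries of 42 months were the most spread. The coefficient of variation of miR-21 CPM was 9.31% at 6 months, 9.77% at 12 and 8.66% at 36 months, where 160, 165 and 164 of the 190 names varied more. It was 23.3% at 24 months, near the median of 24.0% over all names, and 58.4% at 42 months, where the median was 27.5% and 31 names varied more. The highest 42-month library held 4.11 times the lowest, against 1.23 to 1.70 times at the other ages. With library size alone in place of TMM the values were 16.1% at 6 months, 15.4% at 12, 17.6% at 24, 8.92% at 36 and 49.5% at 42 months. Then 108 names varied more at 6 months and 143 at 12 months, where the medians were 18.7% and 22.6%. How low miR-21 stood at 6 and 12 months, and its difference from 24 months, thus depended on the scaling. It stayed below the median at 6 and 12 months. No test was made of the spread.

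MiR-21 was set beside 12 names known, mostly from mammals, to change with inflammation, wounding, hypoxia or stress, a list chosen with earlier results of these data known. In the trend 7 of the 12 rose, where 11.1% of all names were called higher, and none fell, where 15.3% were called lower, with a median slope of 0.27 log2 per 12 months against -0.03 over all 190 names. Over the 41 other settings tried, which include each library left out, 5 to 9 rose. MiR-146a and miR-146b, which damp innate immune signalling, rose by 0.56 ± 0.09 and 0.77 ± 0.15 (SE, edgeR adjusted p = 0.000117 and 0.000426). The myeloid miR-223 rose by 0.55 ± 0.10, the p53-linked miR-34a by 0.59 ± 0.12, and the keratinocyte miR-31 by 0.44 ± 0.11 (adjusted p = 0.000381, 0.000462 and 0.00291). The means of miR-31 were 49.7, 151, 167, 163 and 212 CPM in order of age, so its largest step came between 6 and 12 months. MiR-222b and miR-221 rose by 0.35 ± 0.08 and 0.11 ± 0.04 (adjusted p = 0.00221 and 0.045). MiR-222a, at 4859.7 CPM the most abundant of the 12, had a slope of 0.12 ± 0.05 that did not pass (adjusted p = 0.0914). MiR-155, a microRNA of activated immune cells, was not called either (slope 0.17 ± 0.11, adjusted p = 0.305).

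At 24 against 6 months, the pair of one strain label, 5 members of the list had changed. Of the 12, 4 were higher (8.42% of all names were), namely miR-31, miR-132, miR-212 and the hypoxia-induced miR-210, and 1 was lower (20.5% of all names were), namely miR-155. Without 24 months replicate 3, 2 were higher (miR-31 and miR-132) and 2 lower (miR-155 and miR-222b). Apart from miR-31 and miR-222b these were named after their values were seen. MiR-31 had a log2 change of 1.75 ± 0.24 and miR-155 one of -1.08 ± 0.36 (edgeR adjusted p = 4.67e-05 and 0.0288). At 42 against 6 months 7 of 12 were higher (8.95% of all names were) and none lower (14.2% of all names were), namely miR-31, miR-132, miR-146a, miR-146b, miR-222b, miR-223 and miR-34a. Without 42 months replicates 1 and 5, 3 were higher (miR-31, miR-132 and miR-223) and miR-155 was lower. Since these comparisons share the 6-month libraries with that of miR-21, no overlap between them is drawn.

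Of 10 measured names linked with fibrosis, in which miR-21 is best known from mammals, miR-27a and miR-24 rose (slopes 0.19 ± 0.03 and 0.14 ± 0.05 log2 per 12 months, SE, edgeR adjusted p = 0.000174 and 0.0492) and none fell. That is 2 of 10, where 11.1% of all names were called higher, and the count was 0 to 4 over the alternatives. MiR-29a and miR-29b, which repress collagen genes, and miR-199, the most abundant of the list at 18883 CPM, did not pass in the trend (slopes 0.08 ± 0.06, 0.20 ± 0.12 and 0.03 ± 0.05). At 24 against 6 months 3 of 10 were higher (8.42% of all names were), namely miR-27a, miR-29a and miR-192, and without 24 months replicate 3 only miR-27a was.

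The microRNAs whose levels followed miR-21 most closely over the 25 libraries were led by the miR-146 pair. Likeness was measured as Pearson's r of log2(CPM + 1) over 137 other names with a mean CPM of at least 100, and is a description, since all values share libraries and library totals. The median r was -0.05. The highest were miR-146b (r = 0.84, Spearman's rho = 0.61), miR-146a (0.77 and 0.76), miR-223 (0.73 and 0.47), miR-27a (0.60 and 0.66) and miR-23a (0.57 and 0.64). Without 42 months replicates 1 and 5, the libraries farthest from the median of miR-21, r was 0.58 for miR-146b, 0.72 for miR-146a, 0.27 for miR-223, 0.58 for miR-27a and 0.60 for miR-23a. The likeness of miR-223 thus rested on those libraries.

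In 42 months replicate 1, where miR-21 was highest, miR-146b was at 9406 CPM, miR-146a at 11054 and miR-223 at 615. In replicate 5 they held 1671, 6354 and 269.6 CPM. In replicate 2, where miR-21 was lowest for its age, miR-146b and miR-146a were also the lowest of the 5 at 549 and 2899.7 CPM, whereas miR-223 at 217 CPM lay above replicates 3 and 4. After subtracting the mean of each age, the names most like miR-21 were miR-146b (r = 0.79), let-7c (0.71), miR-146a (0.65), miR-25 (0.56) and miR-222b (0.53). Without 42 months replicates 1 and 5 these were 0.62, 0.53, 0.50, 0.57 and 0.41. The subtracted 42-month means still held those 2 libraries, however, so these values are not free of them. The median r within age was -0.02. Let-7c itself was not called in the trend (slope -0.02 ± 0.06, SE, edgeR adjusted p = 0.862).

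Least like miR-21 over all libraries were miR-455, known from cartilage (r = -0.59), the muscle microRNAs miR-206 (-0.57) and miR-133a (-0.57), miR-454b (-0.56) and miR-724 (-0.54). Of these miR-133a also ran against miR-21 within ages (r = -0.59), while miR-454b did not (-0.03). MiR-455, miR-206 and miR-454b fell in the trend by 0.40 ± 0.06, 0.47 ± 0.11 and 0.23 ± 0.04 log2 per 12 months (SE, edgeR adjusted p = 1.19e-05, 0.0022 and 0.000217).

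**Figure D5:**
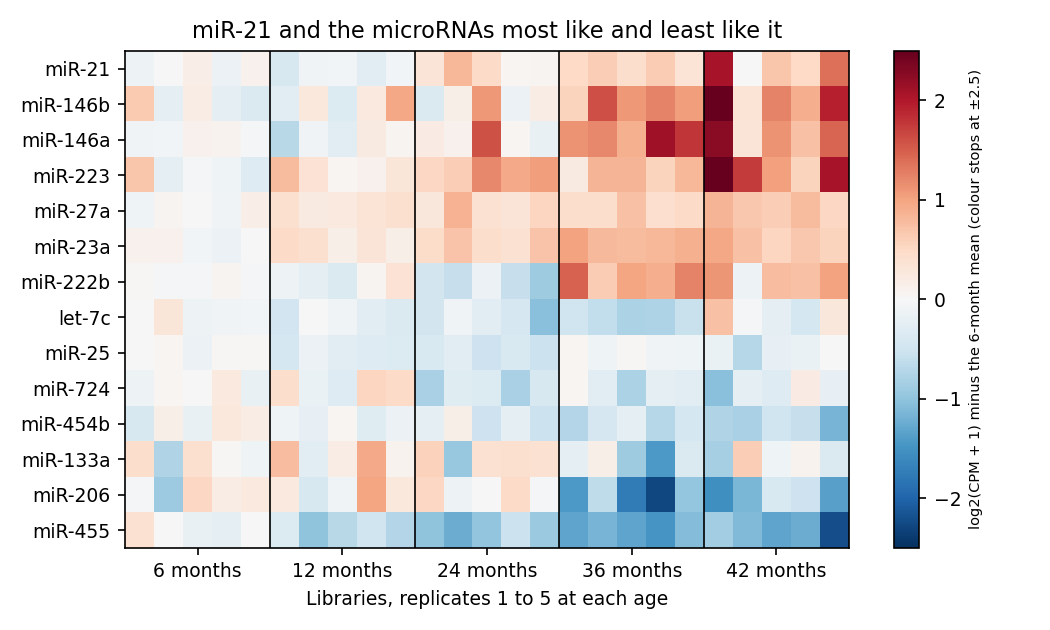
Log2(CPM + 1) minus the mean of the 6-month libraries (colour, red higher, blue lower, colours stop at ±2.5) for miR-21 and the names most and least like it (rows) in the 25 libraries (columns, by age and replicate). MiR-21, miR-146b, miR-146a and miR-223 were each highest in 42 months replicate 1, and miR-455 (r = -0.59) was lowest in 42 months replicate 5.

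Markers of the cell types that skin holds were read beside miR-21. Of the leukocyte list 1 of 4 members rose, miR-223, where 11.1% of all names were called higher, while miR-142a, the most abundant at 2204 CPM, miR-142b and miR-150 did not pass (slopes -0.04 ± 0.06, 0.02 ± 0.06 and -0.11 ± 0.06, SE). The summed leukocyte list ranged from 2955 to 4539 CPM at 6 months and from 2798 to 4089 at 42 months, where 42 months replicate 1 was the highest, so the ages overlapped. Neither erythroid member was called, but the erythroid sum was 3118 CPM in 42 months replicate 1 and 3566 in replicate 5, which ranked 3 and 2 of 25, against 1316 to 2280 in the other 42-month libraries. The epidermal list fell in part, with 5 of 9 members lower in the trend (15.3% of names were lower). These were miR-200a, miR-200b, miR-200c, miR-141 and miR-429a, and the count was 0 to 5 over the alternatives. Without 42 months replicates 1 and 5 it was 2 (miR-200b and miR-200c). The most abundant, miR-205, did not pass (slope -0.02 ± 0.10, SE). At 24 against 6 months, the pair with one strain label, 6 of 9 were lower (20.5% of names), with or without 24 months replicate 3. At 42 against 6 months 6 of 9 were lower (14.2% of names), and 2 of 9 without 42 months replicates 1 and 5. The epidermal sum ranged from 83639 to 122131 CPM at 6 months and from 61342 to 208207 at 42 months. The highest at 42 months was in replicate 2, where miR-205 alone held 169036 CPM, and the lowest in replicate 5 (rank 24 of 25).

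Markers of tissue other than skin stood apart in single libraries. In 24 months replicate 3, which held 85047 CPM of miR-21, the digestive-organ sum was 42945 CPM, against a median of 7444 at that age, and the erythroid sum was 6035 CPM, each the highest of 25. In 42 months replicate 5 the digestive-organ sum was 14930.4 CPM, the 2nd highest, against 6127 in replicate 1. Most of it was miR-192 at 10192 CPM and miR-375 at 4350, the latter below the 4715 of 42 months replicate 4. MiR-122 and miR-194a, at 232 and 118 CPM, were also the highest of that age. So was miR-217, at a low level of 10.49 CPM against at most 4.27 in the others. MiR-216a and miR-216b, at 5.25 and 20.99 CPM there, lay below the 8.34 and 21.68 of 42 months replicate 2. Not every member of the list was thus highest in replicate 5. MiR-216a, miR-216b and miR-217 lay below their 6-month means in every 42-month library, so that comparison does not set replicate 5 apart. Of the digestive-organ list 3 of 7 were higher at 24 against 6 months (8.42% of names), and none was without 24 months replicate 3. MiR-375 was lower in that pair with or without that library (20.5% of names were lower). At 42 against 6 months 2 of 7 were lower (14.2% of names), miR-216a and miR-216b, and only miR-216b without 42 months replicates 1 and 5. In the trend miR-216b was lower (1 of 7 tested, where 15.3% of all names were lower, and 0 to 2 over the alternatives).

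The neural list had 1 of 8 members higher in the trend, where 11.1% of all names were, and 0 to 1 over the alternatives. This was miR-124, which stood at 658 CPM in 42 months replicate 5 and at most 30.8 in the others of that age. MiR-9 and miR-129, not called in the trend, stood at 998 and 144 CPM in that library, against at most 220 and 22.1 in the others. The most abundant member, miR-128, stood at 1335 CPM there, within the range of the others (1321 to 1713). The neural sum of that library ranked 1 of 25. Skeletal muscle had 2 of 5 members lower, miR-1 and miR-206, where 15.3% of all names were lower, and 1 to 2 over the alternatives. The endothelial (2 members), mesenchymal (4) and pigment (1 measured) lists had none called in the trend. At 24 against 6 months the pigment marker miR-204 was higher, with or without 24 months replicate 3. Its log2 change there was 0.40 ± 0.15 (SE, edgeR adjusted p = 0.0464), where 8.42% of names were called higher. The endothelial and mesenchymal lists had none called in that pair. All 4 mesenchymal names are also in the fibrosis-linked list, as is miR-192 of the digestive-organ list. MiR-223 is in both the inflammation and the leukocyte list, so lists with shared members are not separate readings. No listed marker found in the table was at 0 in any library. Whether the make-up of the skin samples had a part in the levels of miR-21 was not tested.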

How the data were processed

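Small RNA was sequenced from skin of male zebrafish in 25 libraries, prepared from total RNA with Illumina's TruSeq small RNA kit per the labels' protocols. The authors deposited 1 table of raw counts per hairpin, with no normalization. The submitters' processing notes name BWA 0.7.12-r1039, SAMtools 1.3.1-9, Trimmomatic 0.36 and CASAVA 1.8.4. How hairpins were counted, on which reference and build, is not given in sources used here. Every column was mapped to a library by its title (0 columns unmapped), and groups are the labelled ages. Replicate numbers follow accession order and carry no meaning. Library totals ranged from 683884 to 5206505.

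Counts of copies with one name were summed to 217 names, and 190 passed edgeR's filterByExpr with a minimum count of 10 (258 of 346 hairpins). TMM factors from the filtered hairpins scaled all levels. The quasi-likelihood test of edgeR 4.0.16 (R 4.3.3) fitted all 25 libraries, once with age in months as a slope and once with ages as groups, with Benjamini-Hochberg adjustment over all names and a threshold of 0.05. On simulated counts of the 190 names, 37 of 40 names with a slope of 0.35 were recovered (92.5%), with 2 false calls. The simulation gave each name the same spread at all ages and a straight slope. It therefore checks the procedure and not its error rates on these data, where the spread of miR-21 differed between ages. Single pairs were also compared by exact two-sided permutation of log2 CPM, and the copy share by 100000 permutations. Alternatives were other scalings and filters, DESeq2 1.42.0, limma-voom (limma 3.58.1), age as rank, a transgene term, a depth covariate, groups left out and each library left out. Likeness and its plot used log2(CPM + 1), and the permutation tests log2 CPM with nothing added.

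The members and lists were chosen with earlier results of these data known. Named are the miR-21 hairpins, list members called in the trend and the most abundant member of each list described, and the 5 names most and least like miR-21, over all libraries and within ages. Other list members (miR-155, miR-132, miR-212, miR-210, miR-29a, miR-29b, miR-192, miR-142b, miR-150, miR-375, miR-216a, miR-217, miR-122, miR-194a, miR-9 and miR-129) fall outside this rule and were named after their values were seen. Sequences of the microRNAs were not used here.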

Additional observations from a re-analysis of the deposited data

Results flagged for a closer look

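The share of miR-21 counts at copy 1 was 50.16% in 12 months replicate 1, the lowest of the 25 libraries, and the next lowest of its age was 50.35%. That gap made up 0.808 of the whole range of the 5 libraries, above Dixon's 95% critical value for 5 samples. Chance flags about 1 in 20 groups.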

How the results depend on the processing

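The trend of miR-21 with age was called in 17 of 17 planned settings and in 25 of 25 fits with a library left out. No paired analysis was possible because the labels give the ages no shared replicate numbers. Of the pairs, fitting only the 2 compared ages gave calls at 24 against 6 (0.46), 36 against 6 (0.50) and 36 against 12 months (0.69) and lost the call at 42 against 12 months (1.33, edgeR adjusted p = 0.0676). The exact permutation p, not adjusted over names, was under 0.05 for 36 against 6 (0.50), 24 against 12 (0.53) and 36 against 12 months (0.69). EdgeR, whose p is adjusted over all names, did not call these. That exact p was also under 0.05 for 42 against 6 and 42 against 12 months, which edgeR called too. For 36 against 24 months upper-quartile scaling turned the sign (-0.0096). For 42 against 24 months DESeq2 gave a call (0.74), as did TMM factors of the summed table (0.78), chosen after seeing the data. Leaving out 42 months replicates 1 and 5, also chosen after seeing the data, gave calls at 24 against 6 (0.45), 36 against 6 (0.56) and 36 against 12 months (0.72). It lost those at 42 against 6 (0.45) and 42 against 12 months (0.62), where 28 and 0 of 191 names were called. It turned the sign at 42 against 36 months (-0.11, adjusted p = 0.808). With single libraries left out the change ran from 0.65 to 0.76 for 36 against 12 months, called without 42 months replicate 1 or 2, from -0.0015 (without 24 months replicate 5) to 0.29 for 36 against 24 months, and from 0.30 to 0.88 for 42 against 24 months, called without 24 months replicate 2 or 42 months replicate 2 or 4. The cause of these changes was not tested. At 42 against 12 months the median log2 change of all names was -0.06, and -0.23 with upper-quartile scaling. The names called in the trend numbered 28 with a transgene term, 32 with a depth covariate, 15 over the transgenic ages and 17 without 6 months, against 50. The shallowest library, 42 months replicate 2, still held 37085 counts of miR-21, so depth limits low names more than miR-21.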
